A study of Mus musculus with 2 samples.

Results

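The miRNA genes that lie within the Hox clusters, Mir10a, Mir10b, Mir196a-1, Mir196a-2 and Mir196b, were followed in small RNA libraries (under 30 nucleotides) of newborn mouse thymus. These 5 genes were chosen by name and position, out of 1973 miRNA gene identifiers in the count tables. Each of the 2 libraries came from both thymus lobes of 1 pup of the strain B6NCrl at postnatal day 0, with pup 3 of pregnancy 1 in replicate 2 and pup 2 of the same pregnancy in replicate 1. Both pups carry the same donor identifier in the labels, sex was not collected, and no treatment or mutant allele is named. The libraries form 1 group, so the data give levels and the spread between littermates and hold no contrast of conditions.

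Hox genes are transcription factor genes that lie in 4 clusters and give body regions their identity along the head-to-tail axis, and Hoxa3 is needed in the mouse for the thymus to form from the pharyngeal pouch. miRNA genes sit at matching places between the Hox genes of several clusters. A miRNA precursor is a hairpin cut into a 5p and a 3p arm, and the arm that is kept guides silencing of mRNAs mainly through its seed, bases 2 to 8. miR-196 is known to direct cleavage of Hoxb8 mRNA, and miR-10 miRNAs have Hox genes among their targets.

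The mature sequences divide the members into families with 1 seed each, and they also show which members can be told apart by their reads. All 5 members matched the RefSeq miRNA table (GRCm38.p6). The 5p arms are printed 5′ to 3′ with the seed in capitals, followed by miR-100 and miR-99a, relatives of miR-10 encoded outside the Hox clusters, and by let-7g, a relative in seed of miR-196.
miR-10a-5p: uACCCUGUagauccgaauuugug
miR-10b-5p: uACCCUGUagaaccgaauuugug
miR-196a-5p: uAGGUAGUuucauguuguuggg
miR-196b-5p: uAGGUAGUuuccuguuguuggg
miR-100-5p: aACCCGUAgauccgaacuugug
miR-99a-5p: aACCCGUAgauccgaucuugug
let-7g-5p: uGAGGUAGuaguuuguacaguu
The 5p arms of Mir10a and Mir10b had the same seed and differed at 1 of 23 bases, U12A from miR-10a to miR-10b, counted from 1 at the 5′ end. Those of miR-196a and miR-196b differed at 1 of 22 bases, at the same position, A12C from miR-196a to miR-196b. Of 1679 named mature sequences in the table, 2 carried the miR-10 seed and 2 the miR-196 seed, all from the members. miR-10a stood 3 single-base edits from miR-100, and the 11-base run they share starts 1 base earlier in miR-100, so that their seeds differ. The miR-196 seed lies in let-7g as a run of 7 bases that starts 1 base later than in miR-196.

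Mir196a-1 and Mir196a-2 encode the identical miR-196a-5p, and 22 bases, the length of that arm, was the longest run their hairpins shared. Reads confined to that run map to both loci, and the deposited tables tally multimapping reads apart from the genes. Of the mature arms, only the 3p arms are specific to each gene, and they are shown for that reason. Reads that reach beyond the shared run can also be assigned, so the counts need not be 3p reads.
miR-196a-1-3p: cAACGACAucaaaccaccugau
miR-196a-2-3p: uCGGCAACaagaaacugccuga
No other RefSeq hairpin held the miR-10a-5p, miR-10b-5p or miR-196b-5p sequence exactly, but near copies exist within each family. With 1 mismatch, the Mir10b hairpin held miR-10a-5p, the Mir10a hairpin held miR-10b-5p, and both Mir196a hairpins held miR-196b-5p. The counts of Mir196a-1 and Mir196a-2 are therefore no measure of mature miR-196a, and the tables do not separate arms.

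**Figure D1:**
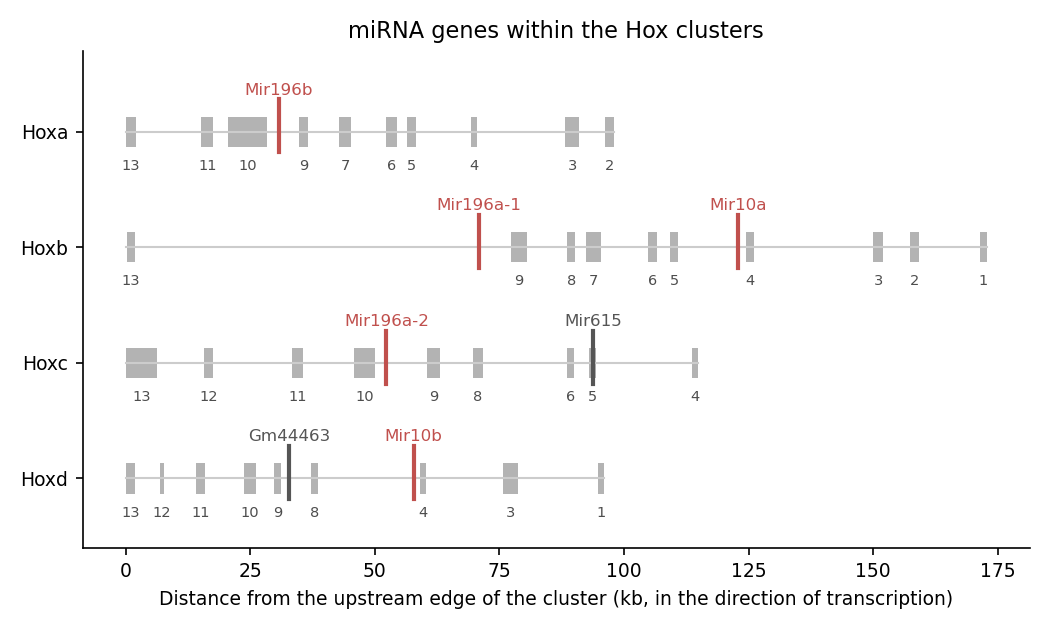
Map of Hox genes in the 4 clusters, with distance in kb from the upstream edge of each cluster in the direction of transcription on the x axis. Grey boxes are the coding spans of Hox genes with their paralog group below, red lines are the members and dark lines other annotated miRNA genes. Both Mir10 genes lie just upstream of group 4 and the 3 Mir196 genes upstream of group 9.

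The members fall at 2 repeated positions within the clusters (GRCm38, GENCODE M21). Mir10a (ENSMUSG00000065519.1, chromosome 11, 96317165 to 96317274, plus strand) overlapped no other annotated gene and ended 1.496 kb before the coding span of Hoxb4. Mir10b (ENSMUSG00000065500.2, chromosome 2, 74726070 to 74726137, plus strand) ended 1.14 kb before that of Hoxd4, within introns of annotated Hoxd3 and Hoxd4 transcripts. The map of the clusters shows that the Mir196 genes all lie upstream of a group 9 gene. Mir196a-1 (ENSMUSG00000065546.1, chromosome 11, 96265164 to 96265265, plus strand) lay 6.28 kb from Hoxb9 and overlapped no gene. Mir196a-2 (ENSMUSG00000065488.1, chromosome 15, 102973350 to 102973434, plus strand) lay between Hoxc10 and Hoxc9, in an intron of a long Hoxc5 transcript. Mir196b (ENSMUSG00000065443.1, chromosome 6, 52230081 to 52230165, minus strand) lay between the coding spans of Hoxa10 and Hoxa9 and overlapped an exon of a Hoxa9 transcript. Of 7 miRNA genes annotated within the clusters, 6 were counted, the members and Mir615. Gm44463 of the Hoxd cluster was not among the identifiers counted.

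The libraries held 1289151 counts on the strand of miRNA genes in replicate 2 and 2734133 in replicate 1, which are the totals behind counts per 1000000 counts (CPM). Multimapping reads made up 57.5% of all reads in replicate 2 and 56.3% in replicate 1, and a gene is called detected here where each library gave it 10 counts or more, as was the case for 294 genes. The tissue label was checked against marker miRNAs. All 5 counted T lineage and blood markers and all 6 epithelial markers were detected. The first list summed to 44760 CPM in replicate 2 and 46270 CPM in replicate 1, and the second to 37225 and 36005 CPM. Most of the first sum was Mir181a-1, with 36043 CPM in replicate 2 and 37220 CPM in replicate 1. Mir181a-1 and Mir181b-1 are numbered gene copies, so the first sum lacks reads that map to more than 1 copy. Of 7 counted neural markers, 4 had 0 counts in both libraries and 2 were detected, Mir137 with 109 counts in replicate 2 and 159 in replicate 1, and Mir219a-1 with 52 and 112. The neural list summed to 126 CPM in replicate 2 and 99.5 CPM in replicate 1. The 4 at 0, Mir124a-1, Mir124a-2, Mir124a-3 and Mir9-2, are numbered gene copies. Reads that map to more than 1 copy are left out of gene counts. These zeros and the neural sum are therefore no measure of the mature miRNAs, and a low neural level is not read from them. In bulk tissue, fewer cells of a type and less RNA per cell cannot be told apart.

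**Figure D2:**
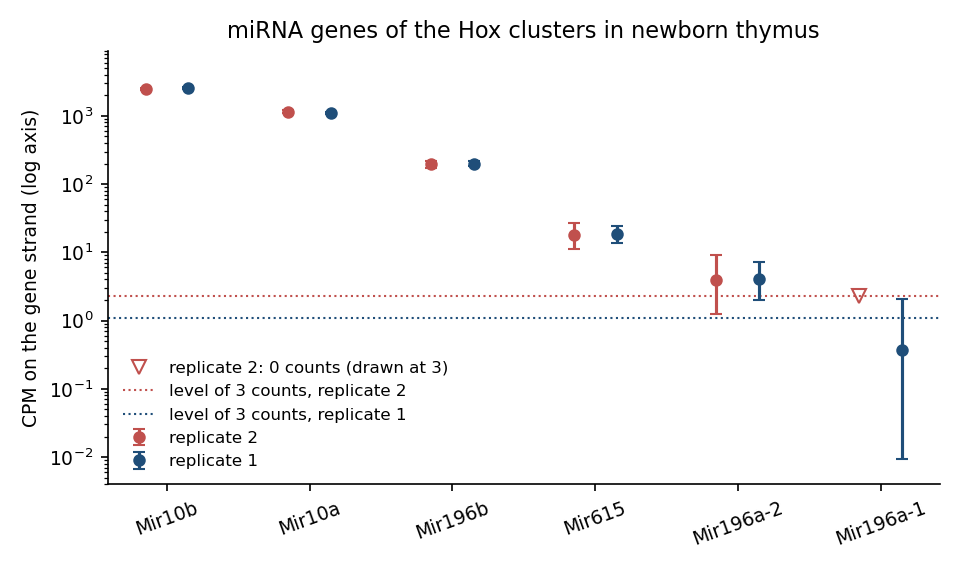
Level of each member and of Mir615 in CPM (log axis) in replicate 2 (red, left) and replicate 1 (blue, right), with exact 95% Poisson intervals of the counts as bars. The open triangle marks 0 counts and dotted lines the level of 3 counts. Mir10b, Mir10a and Mir196b step down in the same order in both libraries, and Mir196a-2 and Mir196a-1 lie close to the level of 3 counts.

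Mir10b was the most abundant member. It had 3217 counts in replicate 2 and 6966 in replicate 1, which is 2495 CPM and 2548 CPM, with a mean of 2522 CPM ± 37.0 (SD, n = 2). Mir10a, which shares its seed, had 1480 counts in replicate 2 and 2974 in replicate 1, or 1148 CPM and 1088 CPM, with a mean of 1118 CPM ± 42.6 (SD, n = 2). The Mir10 levels lay far apart in each library and close together between the libraries. The 5p arms of both are 23 bases long, the tables give no read lengths, and no correction for length was made. The ratio of Mir10a to Mir10b counts, which needs no scaling between libraries, was 0.460 in replicate 2 (exact 95% interval 0.432 to 0.489) and 0.427 in replicate 1 (0.409 to 0.446), with a mean of 0.443 ± 0.0234 (SD, n = 2). The 2 intervals overlapped, and both lay below 1.

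Mir196b was the only Mir196 gene with a level well above counting limits. It had 252 counts in replicate 2 and 546 in replicate 1, or 195 CPM and 199.7 CPM, with a mean of 198 CPM ± 2.98 (SD, n = 2). Mir10a exceeded it by 5.87 times in replicate 2 (exact 95% interval 5.14 to 6.74) and by 5.45 times in replicate 1 (4.97 to 5.98). Mir196a-2 had 5 counts in replicate 2 and 11 in replicate 1, which is 3.88 CPM (exact Poisson interval 1.26 to 9.05) and 4.02 CPM (2.01 to 7.20). Mir196a-1 had 0 counts in replicate 2 and 1 count in replicate 1, or 0.366 CPM. The limit of 3 counts set for 0 is 2.33 CPM in replicate 2, where the exact Poisson interval reaches 2.86 CPM. Both libraries had more counts on Mir196a-2 than on Mir196a-1. In replicate 2 the 5 counts against 0 did not pass a two-sided exact binomial test (p = 0.0625, the smallest that 5 counts allow). In replicate 1 the counts stood at 11 times (exact 95% interval 1.60 to 473), which passed (exact p = 0.0063, or 0.013 adjusted over the 2 libraries). This test was not planned. It compares assigned reads only, since reads that map to both loci are left out. Mir196b had 50.4 times the counts of Mir196a-2 in replicate 2 (exact 95% interval 21.3 to 157) and 49.6 times in replicate 1 (27.5 to 100.02). Reads of miR-196a-5p that map to both loci are missing from the Mir196a side of these ratios.

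The order Mir10b, Mir10a, Mir196b, Mir196a-2, Mir196a-1 was the same in both libraries. Each step was larger than the spread between libraries, and the last step rests on few counts. Together the 5 members took 0.384% of the gene strand counts in replicate 2 (95% Wilson interval 0.374 to 0.395) and 0.384% in replicate 1 (0.377 to 0.391). Of the members' own counts, Mir10b supplied 64.9% in replicate 2 and 66.4% in replicate 1, Mir10a 29.9% and 28.3%, and Mir196b 5.09% and 5.20%. Reads of miR-196a-5p that map to both loci are missing from these counts, so the shares are of assigned reads only. Intervals cover counting error only. They treat reads as independent, which PCR reads without molecular identifiers are not, so they can be too narrow.

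Mir615, a further miRNA gene of the Hoxc cluster (ENSMUSG00000076010.1, chromosome 15, 103014910 to 103015001, plus strand), had 23 counts in replicate 2 and 50 in replicate 1. Its mean of 18.1 CPM ± 0.315 (SD, n = 2) placed it between Mir196b and Mir196a-2. Mir196b exceeded Mir615 by 10.96 times in replicate 2 (exact 95% interval 7.14 to 17.6) and by 10.92 times in replicate 1 (8.17 to 14.9).

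**Figure D3:**
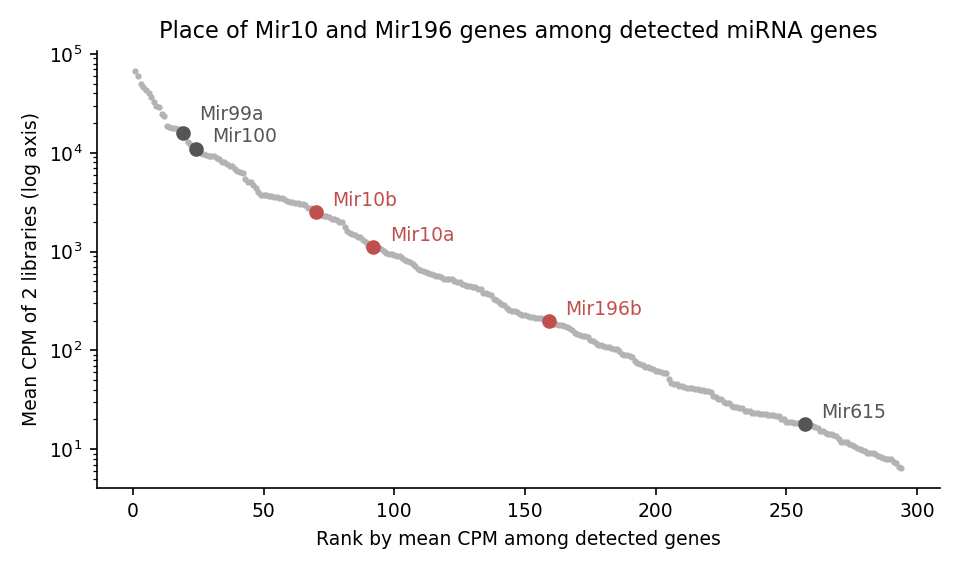
Mean CPM of the 2 libraries (log axis) against rank for the 294 detected genes (grey). Red points are detected members, dark points other named genes. Mir10b stands at rank 70, Mir10a at 92 and Mir196b at 159, all below Mir99a and Mir100.

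Among the 294 detected genes, whose median level was 239 CPM, Mir10b ranked 70, Mir10a 92 and Mir196b 159. Mir10b thus stood above 76.2% of detected genes, Mir10a above 68.7% and Mir196b above 45.9%. Likeness of level was measured as the distance in log2 CPM over the 2 libraries. The genes nearest to Mir10b were Mir324 (distance 0.08), Mir141 (0.17) and Mirlet7f-2 (0.23). Those nearest to Mir10a were Mir188 (0.0049), Mir125a (0.07) and Mir487b (0.09), and those nearest to Mir196b were Mir125b-2, Mir362 and Mir147 (0.12 to 0.15). Directly above Mir10b stood Mir324 with 2627 CPM ± 60.4 and directly below it Mir296 with 2405 CPM ± 466, the second of which overlaps Mir10b within its spread. Mir188 (1119 CPM ± 39.5) and Mir125a (1115 CPM ± 98.7) flanked Mir10a within the spread between libraries. Around Mir196b, Mir181a-2 (198 CPM ± 97.7) and Mir101a (189 CPM ± 20.9) were likewise within it. With 2 libraries this likeness is one of level.

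**Figure D4:**
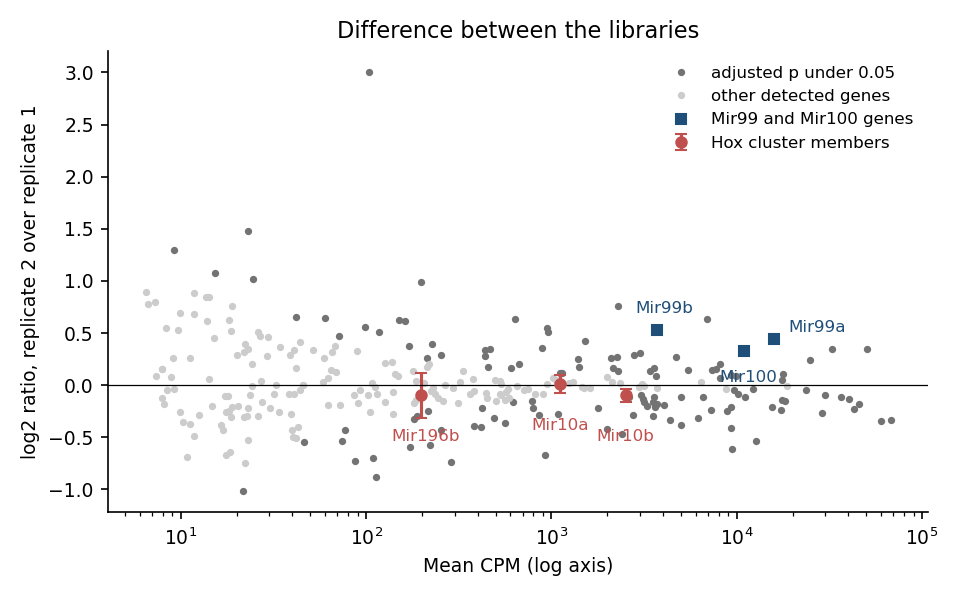
Log2 ratio of replicate 2 over replicate 1 against mean CPM (log axis) for the 294 detected genes, with dark grey for genes that passed the exact binomial test at an adjusted p under 0.05. Red points with exact 95% intervals are the detected members and blue squares Mir99a, Mir99b and Mir100. The members lie within 0.10 of zero and the blue squares between 0.33 and 0.53.

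Between the littermates, the detected members differed little. Counts of replicate 2 against replicate 1 were compared over all detected genes by a two-sided exact binomial test after TMM scaling, with Benjamini-Hochberg adjustment. The test compares 2 libraries by counting error and has no replicate check. It called 43.5% of the 294 genes, so a call is common here, with 20.1% higher and 23.5% lower in replicate 2 (59 and 69 genes, or 72 and 52 when scaled to total counts). Of the 3 detected members, 1 passed. Mir10b was lower in replicate 2 with a log2 ratio of -0.10 (interval from -0.16 to -0.04, adjusted p = 0.0047 in the exact binomial test), but this call was lost with DESeq2 size factors, total counts or a filter of 100 counts, with adjusted p of 0.073, 0.47 and 0.063. In the same exact test Mir10a had a log2 ratio of 0.01 (-0.08 to 0.10, adjusted p = 0.89) and Mir196b one of -0.10 (-0.32 to 0.12, adjusted p = 0.54). Mir196a-1 and Mir196a-2 had too few counts to enter the test. The median absolute log2 ratio of all detected genes was 0.21, and 82 of the 294 lay within 0.1 of zero. A negative binomial test called 0.340% of genes and no member. Its spread was estimated from the same 2 libraries, so that their difference counts as spread, and nothing is read from its lack of calls.

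The relatives of miR-10 outside the Hox clusters were set beside the members, as in the plot of differences between the libraries. The list of Mir99a, Mir99b, Mir100, Mir125a, Mir125b-1 and Mir125b-2 summed to 37428 CPM in replicate 2 and 27217 CPM in replicate 1. In the exact binomial test 4 of its 6 genes were higher in replicate 2, against 20.1% of all detected genes, and the remaining 2, Mir125b-1 and Mir125b-2, did not pass. Its median log2 ratio was 0.22, against -0.03 over all detected genes. Mir100, 3 edits from miR-10a, had 16093 counts in replicate 2 and 25969 in replicate 1, and exceeded Mir10b by 5.00 times in replicate 2 (exact 95% interval 4.82 to 5.20) and by 3.73 times in replicate 1 (3.63 to 3.83). Mir99a exceeded Mir10b by 7.48 times in replicate 2 (7.21 to 7.76) and by 5.13 times in replicate 1 (5.00 to 5.27). These intervals did not overlap between the libraries, unlike that of Mir10a to Mir10b. Mir125b-1, a gene in the same region of chromosome 9 as Mir100, stood at 0.176 times Mir10b in replicate 2 (0.160 to 0.192) and 0.179 times in replicate 1 (0.169 to 0.190). Mir125b-1 and Mir125b-2 are numbered gene copies, and reads that map to both are left out of gene counts. This ratio is therefore no measure of mature miR-125b, and the list sum lacks such reads. With 1 library per pup, these differences have no test over animals.

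Some markers of other cell types differed between the libraries more than the members did. In the exact binomial test, 4 of the 5 T lineage and blood markers were lower in replicate 2 and 1 was higher. Of the 6 epithelial markers, 3 were higher in replicate 2, 1 was lower and the others did not pass. Over all detected genes, 20.1% were higher and 23.5% lower. Among striated muscle markers, with 8 counted and 3 detected, the summed level was 745 CPM in replicate 2 and 488 CPM in replicate 1. Of the 3, 2 were higher in replicate 2 in the exact binomial test, against 20.1% of all detected genes. Mir208b, encoded within a cardiac myosin heavy chain gene, had 238 counts in replicate 2 and 60 in replicate 1, with a log2 ratio of 3.01 (interval from 2.59 to 3.44, adjusted p = 1.2e-60). The following pair was named after its values were seen. Mir499 had 44 counts in replicate 2 and 32 in replicate 1 (log2 ratio 1.48), and Mir208a, below 10 counts in 1 library and so not tested, had 105 and 6. Mir133b, also named afterwards and not tested for the same reason, went the other way, with 4 counts in replicate 2 and 19 in replicate 1. Mir206, a miRNA of skeletal muscle, had 442 CPM in replicate 2 and 445 CPM in replicate 1 and did not pass. Mir1a-1, Mir133a-1 and Mir133a-2 had 0 counts in both, but they are numbered gene copies. Reads that map to more than 1 copy are left out of gene counts, so these zeros do not show that the miRNAs are absent.

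The mesenchyme and smooth muscle list, with all 6 genes counted and 5 detected, summed to 60634 CPM in replicate 2 and 45733 CPM in replicate 1. Most of that sum was Mir143, with 57301 CPM in replicate 2 and 42989 CPM in replicate 1. Mir143 and Mir214 passed as higher in replicate 2, a call given to 20.1% of all detected genes. Mir145a, Mir199a-2 and Mir199b did not pass. Mir199a-2, with 16 counts in replicate 2 and 27 in replicate 1, is a numbered gene copy. Its counts lack reads that map to more than 1 copy. The endothelial marker Mir126a passed as higher in replicate 2, at 37298 CPM against 28049 CPM in replicate 1. Of the 2 erythroid genes, Mir451a passed as lower in replicate 2, with 82.2 CPM against 144 CPM in replicate 1, a call given to 23.5% of all detected genes. Mir144 did not pass, with 85.3 CPM in replicate 2 and 87.0 CPM in replicate 1. The 5 members summed to 3843 CPM in replicate 2 and 3840 CPM in replicate 1. The part of these cell types in the members' levels was not tested.

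**Figure D5:**
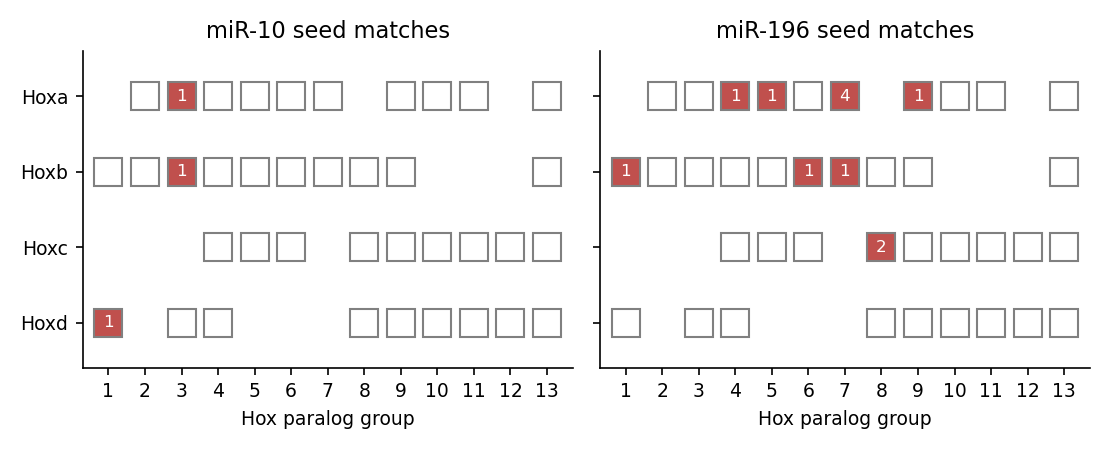
Seed matches in the 3′ untranslated regions of 38 Hox genes, by paralog group (x axis) and cluster (y axis), for miR-10 (left) and miR-196 (right). Filled squares carry the number of matches and open squares have none. Matches to miR-10 fall in 3 genes of groups 1 and 3, those to miR-196 in 8 genes between groups 1 and 9.

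Hox mRNAs were not measured by these libraries, so the link of the members to their host clusters was described by sequence only. In the longest annotated 3′ untranslated region of each protein-coding gene (GENCODE M21, mRNA strand only), the letters ACTACCT, complementary to the miR-196 seed, were found in 8 of 38 Hox genes, or 21.1%, against 6.10% of 21019 genes. This was 0.327 matches per kb in Hox genes and 0.0455 per kb in all genes. Within the first 500 bases, 7 of 33 Hox genes (21.2%) held the match, against 1.97% of 14291 genes with a region of at least that length. Hoxa7 held 4 matches, Hoxc8 held 2, and Hoxa4, Hoxa5, Hoxa9, Hoxb1, Hoxb6 and Hoxb7 held 1 each. The letters ACAGGGT, complementary to the miR-10 seed and with no overlap with the other motif, were found in 3 of 38 Hox genes (Hoxa3, Hoxb3 and Hoxd1), or 7.89%, against 12.5% of all genes, at 0.0818 and 0.0997 matches per kb. Within the first 500 bases the miR-10 match was in 3.03% of 33 Hox genes and 4.79% of all genes. The Hox rate per kb rests on 3 matches for miR-10 and 12 for miR-196, and these are descriptions of letters with no test.

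Over its whole length, miR-196a-5p found its closest ungapped partner among all 21019 regions in Hoxb8, downstream of Mir196a-1 in the same cluster. The site is shown because no other region paired at as many bases. It lies at chr11:96284888-96284909 on the plus strand (GRCm38), and capitals mark Watson-Crick pairs with miR-196a-5p.
Hoxb8 site: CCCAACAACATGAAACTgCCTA
Pairs formed at 21 of 22 bases, and the remaining base, in lower case, can form a G:U pair within the seed, which is why Hoxb8 was not among the 8 genes with a full seed match. miR-196b-5p paired at 20 of 22 bases of the same site. For miR-10a-5p and miR-10b-5p, the best Hox region paired at 14 and 15 of 23 bases, numbers that 5244 and 1239 of all regions reached.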

How the data were processed

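Small RNA was sequenced from whole thymus of 2 newborn pups, 1 library each. The values deposited by the authors are raw counts of reads for each miRNA gene, without normalization and with a table for each library. Reads were mapped to mm10 and counted over GENCODE M4, per the deposited text files. The aligner and the counting tool were not given in the sources used here. From the values, the first of 3 unnamed columns sums the gene strand (used here) and the opposite strand. Rows for unmapped (9.17% of replicate 2, 10.6% of replicate 1), multimapping and unassigned reads (2.57% and 2.99%) were left out of totals.

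Of 1973 identifiers, 1894 matched GENCODE M21, a later release, so boundaries may differ from those counted. Library sizes were scaled by TMM (edgeR 4.0.16, R 4.3.3). Exact binomial tests, Poisson, binomial and Wilson intervals at 95% used scipy 1.17.1 (Python 3.11.15), for genes with 10 counts or more in each library. The threshold was an adjusted p of 0.05. The negative binomial test used edgeR's common dispersion over the same 2 libraries taken as 1 group (biological coefficient of variation 0.154). Limits for 0 are 3 counts. Nothing beyond the descriptions says how separate the samples are. The exact binomial p-values measure counting error only, and a difference between these libraries may be technical. Alternatives were the unstranded column, DESeq2 1.42.0 size factors, total counts, other filters and denominators, and each library alone.

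The members, lists and naming rule were chosen with earlier results of these data known. The rule names the members, other miRNA genes of the Hox clusters, the 3 nearest genes to each detected member, its neighbours in rank, and list members a result turns on. Mir133b, Mir199a-2, Mir199b, Mir208a, Mir214, Mir499 and the markers at 0 were named after their values were seen. A gene of the Hox clusters is not reported here and was left out of the maps and of the seed counts.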

Additional observations from a re-analysis of the deposited data

Results flagged for a closer look

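Counts on the strand opposite to a member appeared for Mir10a, with 4 in replicate 2, above the 3 counts that a count of 0 allows, and 0 in replicate 1. No gene is annotated on that strand there, and the other 4 members had 0 opposite counts in both libraries.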

How the results depend on the processing

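No paired analysis was possible because both libraries belong to 1 group. Over all detected genes, 128 were called by the exact binomial test and 115 to 131 under the other columns, scalings and filters, but 1 with the negative binomial test, which passed no member and takes the difference between the 2 libraries as spread. Mir10a turned from 0.01 to a log2 ratio of -0.0067 without a filter on low counts, by the change in TMM scaling. Mir196b kept its sign in all 6 alternatives and did not pass in any of them. Mir10b kept its sign in all 6 and lost its call in 4, among them the negative binomial test. Levels moved with the denominator. With the unstranded column, Mir10a, Mir10b, Mir196a-2 and Mir196b had 957, 2157, 3.38 and 169 CPM, per 1000000 reads of any kind 291.0, 656, 1.03 and 51.4, and without the most abundant gene in the denominator 1199, 2705, 4.24 and 212. Levels with either library left out ran from 1088 to 1148, 2495 to 2548, 3.88 to 4.02, 195 to 199.7 and, for Mir196a-1, 0 to 0.366 CPM. The summed share was 0.329% with the unstranded column, 0.3837% without Mir196a-1 and Mir196a-2 and 0.412% without the most abundant gene, and it was 0.38396% and 0.38428% for single libraries, a spread so narrow that small shifts exceed it. The ratio of Mir10a to Mir10b was 0.444 with the unstranded column and 0.427 to 0.460 in single libraries. Depth limits Mir196a-1 and Mir196a-2, and the exclusion of multimapping reads limits miR-196a at any depth.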
